A study of Mus musculus with 4 samples.

Results

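The comparison described here sets cells that stain strongly for the surface antigen Ly6C against cells that stain weakly, within the mPGES-1 knockout (KO) livers of a study of liver ischaemia and reperfusion in mice. It rests on 2 of the study's 4 arrays, the one titled for KO Ly6C-hi and the one titled for KO Ly6C-low; the other 2 hold the same gates from wild-type (WT) livers. The arrays were taken by their titles, and are called the hi array and the low array below, each after its label. Hepatic macrophages of C57/BL6 mice were sorted 48 h after blood flow returned, from 10 WT and 10 mPGES-1-/- animals, and RNA was read on Affymetrix Mouse Gene 2.0 ST arrays. Both groups compared here therefore carry the same deletion and the same reperfusion injury and differ in the Ly6C gate. The sources used here do not give the age and sex of the mice, the other antibodies of the sort or whether mice were pooled for an array. With 1 array a side no difference has a replicate check or a p-value, so every result below is a size.

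Ly6C marks monocytes newly recruited from blood, which enter an injured liver through the receptor Ccr2 and carry a program of alarm proteins, phagocyte receptors and interleukin-1. As they mature they lose Ly6C and can take on repair functions such as the clearance of dying cells, while the resident macrophages of the liver, the Kupffer cells, lie inside the sinusoids against a specialised, scavenging endothelium. mPGES-1, encoded by Ptges, is the inducible enzyme that makes prostaglandin E2 downstream of cyclooxygenase-2, and prostaglandin E2 acts on macrophages through receptors that include Ptger4.

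Values are gene-level log2 signals, so a difference of 1 is 2-fold. Differences are hi minus low, so positive values are higher in the hi array. Each gene was read through 1 probe set, and a gene was used when it reached a log2 level of 6 in the brighter of the 2 KO arrays, which 4541 of 22180 genes did. The median gene used differed by -0.37, and the quartiles lay at -0.87 and 0.11, so the hi array read lower for most genes used. Values centred on that median are given beside the deposited ones, and centring moved every difference by 0.37 toward hi. Across all probe sets, without the floor, the median level was 4.20 in the hi array and 4.03 in the low array. As a guide to background, the level passed by only 2.5% of the olfactory and vomeronasal receptor genes, whose usual place is the nose, stood at 6.09 in the hi array and 5.49 in the low array. A value under that level may hold no signal of its gene, and the size of a difference is then uncertain. In sorted bulk RNA, fewer cells of a type and less RNA per cell cannot be told apart.

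The gate was visible in the array values, and the deletion was not. Ly6c2, which encodes the Ly6C antigen, read 8.94 in the hi array and 4.33 in the low array, the largest difference toward hi of any gene ranked (4.61). Its neighbour Ly6c1, the form found on endothelium, read 3.03 and 2.89, in the range of background on both sides. Ptges read 6.32 and 6.20 in the 2 arrays labelled KO, against 5.65 and 5.69 in the WT arrays. The targeted gene thus did not read lower under the KO label, and where its single probe set lies relative to the deleted part is not given, so it may check nothing. The genotype is taken from the label throughout.

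Both arrays carried the defining markers of macrophages and monocytes, and the Ly6C-low array also carried those of sinusoidal endothelium. All 9 markers of macrophages and monocytes, among them the leukocyte phosphatase Ptprc (9.53 in the hi array and 8.45 in the low array) and the growth factor receptor Csf1r (9.02 and 8.70), reached a log2 level of 6 in both arrays. The 8 markers of sinusoidal endothelium spanned 3.24 to 5.91 in the hi array and 8.79 to 11.46 in the low array, so the arrays did not overlap. Their levels summed to 7.92 on the log2 scale in the hi array and 13.14 in the low array. Of 7 neutrophil markers 6 reached a level of 6 in the hi array and 3 in the low array, and their summed level was 11.19 against 8.73. Ly6g, the antigen that defines neutrophils in mouse sorts, stayed under 6 on both sides (5.18 and 4.01). Of 6 Kupffer cell markers only the folate receptor Folr2 reached 6, in the low array (5.58 and 7.54), while Clec4f, Vsig4, Timd4, Cd5l and Marco lay under 6 in both arrays. None of the 4 T cell, 3 NK cell and 4 dendritic cell markers of this check reached 6 in either array. The longer list of conventional dendritic cell genes had 4 members used, among them Batf3 (6.25 and 6.42) and Cd209a (6.40 and 7.05). The array labelled for Ly6C-low macrophages thus read all 8 endothelial markers above the background guide.

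In all, 203 genes (4.47% of genes used) passed 2-fold toward the hi array and 938 (20.7%) passed it toward the low array. After centring, the counts were 486 (10.7%) and 582 (12.8%), so the balance between the sides changed with the scaling. As deposited, 16 genes stood at 4-fold or more toward hi and 294 toward low, and 1 and 54 genes at 16-fold or more. The dimmer array was under the background guide for 731 of the 938 genes higher in the low array and for 62 of the 203 genes higher in the hi array. A total of 2684 genes, 59.1% of those used, reached 6 in both arrays, and of these 99 and 215 passed 2-fold.

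**Figure D1:**
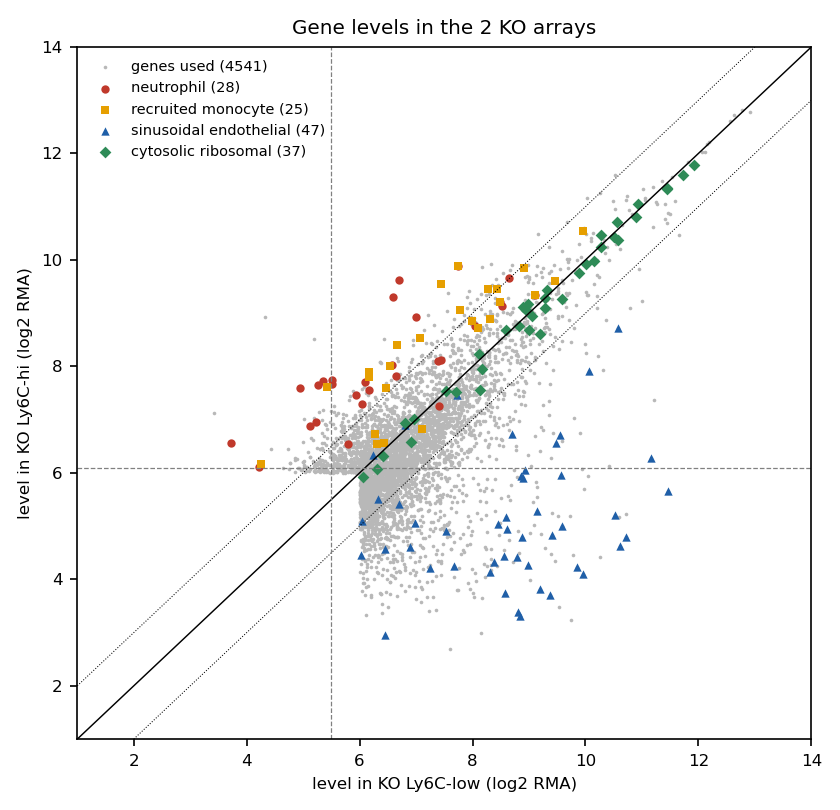
Log2 level of the 4541 genes used in the array labelled KO Ly6C-low (x axis) and the array labelled KO Ly6C-hi (y axis), with neutrophil, recruited monocyte, sinusoidal endothelial and cytosolic ribosomal protein genes in colour. The solid line marks equal levels, dotted lines 2-fold, and dashed lines the background guide of 5.49 and 6.09. Most neutrophil and monocyte genes lie above the diagonal, and ribosomal genes lie along it. The sinusoidal endothelial genes join several lists. Of these, 9 of 10 scavenger and lectin, 13 of 15 growth factor receptor and 20 of 22 junction and identity genes lie at least 2-fold below the diagonal.

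Promoters are shown for the gene of the sorted antigen and for leading genes of each side, so that the letters searched can be seen in place. The sequences are the 250 bases before the annotated start, 5′ to 3′ on the strand of the gene, from RefSeq on GRCm38.p6, with motif matches in capitals. Ly6c2 (chr15:75111972-75112221, minus strand, the first of its listed starts) encodes the sorted antigen. S100a8 (chr3:90668821-90669070, plus strand) and S100a9 (chr3:90695722-90695971, minus strand) are the neighbouring genes of the alarm protein calprotectin, Clec4e (chr6:123289872-123290121, minus strand) encodes the lectin Mincle, and Stab2 (chr10:87007943-87008192, minus strand) encodes the hyaluronan scavenger receptor of sinusoidal endothelium.

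Ly6c2: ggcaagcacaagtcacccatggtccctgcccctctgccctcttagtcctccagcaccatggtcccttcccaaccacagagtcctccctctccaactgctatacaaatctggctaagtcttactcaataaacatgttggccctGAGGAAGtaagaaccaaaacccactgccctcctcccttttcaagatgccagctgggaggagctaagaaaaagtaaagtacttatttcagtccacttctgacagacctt
S100a8: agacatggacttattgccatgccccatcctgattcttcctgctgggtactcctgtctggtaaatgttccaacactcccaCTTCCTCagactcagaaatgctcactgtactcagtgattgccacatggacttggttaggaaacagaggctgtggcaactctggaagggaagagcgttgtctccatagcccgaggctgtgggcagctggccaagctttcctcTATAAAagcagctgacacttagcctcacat
S100a9: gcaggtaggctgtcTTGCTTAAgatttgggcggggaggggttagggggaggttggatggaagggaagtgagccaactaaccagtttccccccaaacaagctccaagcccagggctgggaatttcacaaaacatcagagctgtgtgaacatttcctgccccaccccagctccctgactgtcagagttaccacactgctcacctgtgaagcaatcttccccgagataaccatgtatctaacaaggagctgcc
Clec4e: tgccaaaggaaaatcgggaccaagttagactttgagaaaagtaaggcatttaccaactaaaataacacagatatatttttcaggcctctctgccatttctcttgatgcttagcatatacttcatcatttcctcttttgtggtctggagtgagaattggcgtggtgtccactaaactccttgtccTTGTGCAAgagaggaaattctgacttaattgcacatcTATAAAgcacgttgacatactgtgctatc
Stab2: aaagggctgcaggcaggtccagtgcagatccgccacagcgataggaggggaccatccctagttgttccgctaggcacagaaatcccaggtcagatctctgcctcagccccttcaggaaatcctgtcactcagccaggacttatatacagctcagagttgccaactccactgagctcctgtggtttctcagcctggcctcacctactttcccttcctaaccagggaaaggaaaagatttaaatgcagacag

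Both strands were searched for 7 motifs. GAGGAAG stands for ETS factors with the flanking bases favoured by PU.1, and TTGCNNAA for C/EBP. The AP-1 letters were TGANTCA and the NF-kB letters GGGANTTCC. Those of GATA factors were AGATAAG, those of SOX factors were read as ACAATGG, and TATAAA stood for the TATA box. Ly6c2 held the ETS letters 108 bases before its start and S100a8 held them 171 bases before, on the other strand. S100a9 held a C/EBP match 236 bases before its start and Clec4e held one 66 bases before. TATAAA stood 30 bases before the start of S100a8 and 29 before that of Clec4e. The stretch before Stab2 held none of these letters, and no printed match overlapped another. Over windows from 250 bases before to 50 after the start, the ETS letters were in 24% of 171 windows of genes at least 2-fold higher in the hi array, 16% of 927 windows of genes higher in the low array, 15.9% of 4514 windows of genes used and 13.6% of all 32851. The C/EBP letters were in 14%, 9.49%, 8.62% and 10.8% of the same windows. The AP-1 letters were in 9.94%, 6.26%, 5.74% and 7.81%. The NF-kB letters were in 4.09%, 2.05%, 2.75% and 1.68%, the GATA letters in 2.34%, 2.27%, 1.71% and 3.04%, and the SOX letters in 2.34%, 2.8%, 2.24% and 3.66%. TATAAA was in 14.6%, 9.92%, 7.93% and 13.6%. These shares describe the letters alone; genes with several starts give several windows.

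Ly6C-hi cells carried more transcript of the alarm and granule proteins of neutrophils and inflammatory monocytes. S100a8 read 9.62 in the hi array and 6.69 in the low array, and S100a9 read 9.30 and 6.60, differences of 2.93 and 2.70. Both were above the background guide on both sides. The collagenase gene Mmp8 (7.59 and 4.94), the gelatinase gene Mmp9 (6.88 and 5.12) and the iron-trapping lipocalin Lcn2 (6.96 and 5.22) were dim in the low array, so their sizes are less certain. Of the 20 secretory and granule genes 10 were used, 7 of them at least 2-fold higher in the hi array, and none were that much lower (median 1.74, or 0.73 over the members that reached 6 in both arrays). Hp, which encodes haptoglobin, and the lysozyme gene Lyz2, which macrophages also express, lay under 2-fold (0.73 and 0.22). The stefins, a family of cysteine protease inhibitors in neutrophils, did not reach 6 in any of the 7 held by the array; Stfa1 read 5.11 and 3.55.

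Receptors that neutrophils and inflammatory monocytes use to find and sense their targets stood on the same side. Of 23 surface and signalling genes held by the array 18 were used, and 13 of these were at least 2-fold higher in the hi array, and none were that much lower (median 1.43, or 1.80 when centred). Csf3r, the receptor for granulocyte colony-stimulating factor, read 8.93 in the hi array and 7.0 in the low array. The lectin receptors Clec4e, which recognises mycobacterial lipid and products of dead cells, and Clec4d, its partner, read 9.88 and 7.75, and 7.71 and 6.10. These 3 genes were above the guide in both arrays. Trem1, an amplifier of myeloid activation, read 7.75 and 5.51, and the chemokine receptor Cxcr2 read 6.55 and 3.72. Cxcr2 was near background in the brighter array as well, and with dim values raised to the guide its difference was 1.06 rather than 2.83. The neutrophil markers that move with these results are given above, and the part of neutrophil RNA in them was not tested.

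Genes of recruited monocyte identity were higher in the hi array, with most members measured on both sides. Of 26 held by the array 25 were used, 24 read higher in the hi array and 13 passed 2-fold (median 1.02, or 1.39 when centred). Plac8, a gene of newly arrived monocytes, read 9.55 and 7.44. Ccr2, the receptor that calls monocytes out of the marrow, read 9.06 and 7.78, a difference of 1.28. The secreted chitinase-like protein gene Chil3 (7.61 and 5.42), the membrane protein gene Ms4a4c (7.90 and 6.16), the extracellular glycoprotein gene Emilin2 (8.41 and 6.67) and the transglutaminase gene F13a1 (7.80 and 6.17) all lay past 2-fold. The matrix gene Fn1 and the antiviral membrane gene Ifitm3 were bright on both sides and near each other (10.54 and 9.96, 9.60 and 9.45). Emb, an adhesion gene among the largest differences (8.96 and 7.2), had a second probe set that differed by -0.11.

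Genes of the patrolling, Ly6C-low kind of monocyte passed 2-fold toward low in a share near that of all genes used. Of 10 used, 3 were at least 2-fold higher in the hi array and 2 in the low array, with a median of 0.47. The shares of all genes used were 4.47% and 20.7%, with a median of -0.37. Nr4a1, the nuclear receptor on which patrolling monocytes depend, read 9.41 in the hi array and 7.93 in the low array. It is also on the list of immediate early and stress genes, most of which read higher in the hi array. The integrin gene Itgal read 7.82 and 6.64. The fractalkine receptor gene of patrolling monocytes, Cx3cr1, read 8.51 and 7.78. The 2 members higher in the low array were the lipid genes Fabp4 (6.13 and 10.43) and Cd36 (6.71 and 9.56), which capillary endothelium also expresses.

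Genes of the interleukin-1 system stood on both sides. Il1b read 9.93 in the hi array and 8.33 in the low array, and Nlrp3, the inflammasome sensor that leads to its release, read 8.52 and 6.44. The decoy receptor gene Il1r2 (7.66 and 5.51) and the epithelial-type cytokine gene Il1f9 (7.13 and 3.42) stood on the same side. Il1a, the form of interleukin-1 that dying cells release, went the other way, with 5.92 in the hi array and 8.79 in the low array. Its value in the hi array lay under the background guide of 6.09, and with that value raised to the guide the difference was -2.70. The interleukin-1 receptor gene Il1r1 also read higher in the low array (3.94 and 6.08), but its sign turned with lowess scaling (0.41) and with dim values raised to the guide (0.01). Pycard, the adaptor of the inflammasome, was near equal (7.69 and 7.54). In all, 4 of 12 used members were at least 2-fold higher in the hi array and 2 in the low array, with a median of 0.48. Over all genes used the shares were 4.47% toward hi and 20.7% toward low, so the share of this list toward low was under that of all genes.

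Chemokine receptors read higher in the hi array, and chemokines stood on both sides. Of 7 receptors used 3 were at least 2-fold higher in the hi array and none that much lower (median 0.80), with Ccr1, a receptor for inflammatory chemokines, at 6.57 and 5.36. Of 13 chemokines 1 was that much higher in the hi array and 4 in the low array, with a median of -0.25 that became 0.12 when centred. The all-gene share toward low was 20.7% and the all-gene median -0.37. The monocyte attractant Ccl2 read 7.65 and 6.62. On the Ly6C-low side stood the membrane-bound Cxcl16 (7.27 and 9.25), the interferon-induced Cxcl9 (4.73 and 6.76), the platelet chemokine Pf4 (7.05 and 8.64) and the T cell attractant Ccl5 (6.76 and 7.86). Cxcl9 lay under the guide in the hi array, and with dim values raised to it differed by -0.67. The neutrophil attractant Cxcl2 read 9.04 and 8.31.

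Sensing receptors and their regulators mostly read higher in the hi array. Of 20 pattern recognition and TREM receptor genes used 6 were at least 2-fold higher in the hi array and 1 in the low array, with a median of 0.72. The bacterial lipopeptide receptor gene Tlr6 read 6.66 and 5.13, and Clec7a, the receptor for fungal glucan, read 9.90 and 8.99. The exception was Tlr3, which senses double-stranded RNA in endosomes (4.41 and 6.89). Its value in the hi array lay under the background guide, and with that value raised to the guide the difference was -0.80. Of 14 myeloid transcription factors 2 were past 2-fold toward hi, the Myc antagonist Mxd1 (8.09 and 6.37) and Nfil3 (8.10 and 6.67), and 1 toward low, Cebpd (5.70 and 7.21). The 5 NADPH oxidase genes used stayed within 2-fold, with its catalytic subunit gene Cybb at 9.85 and 8.92.

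**Figure D2:**
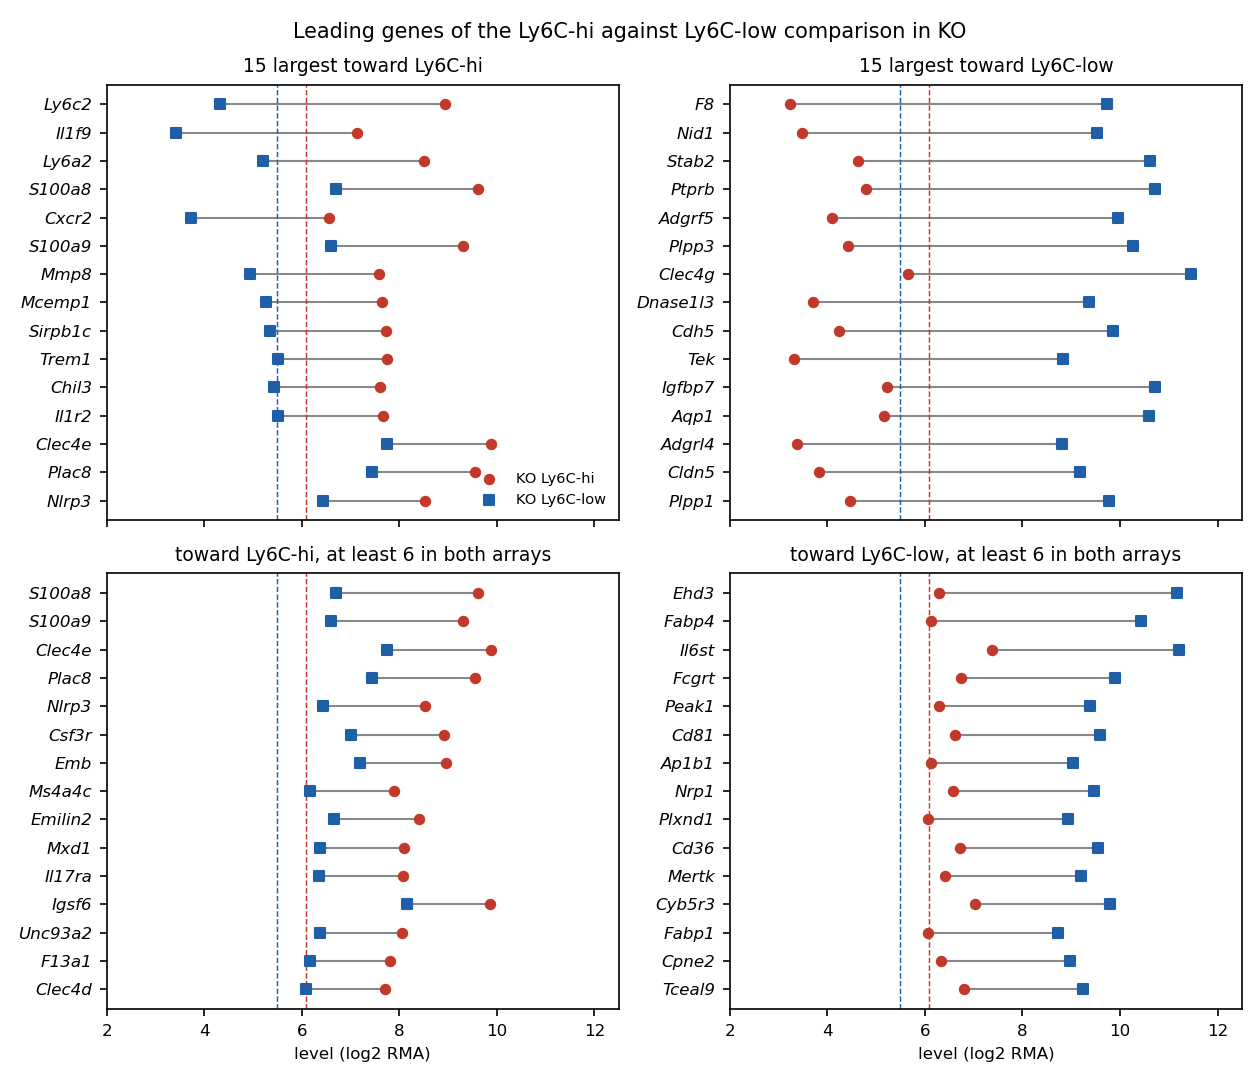
Log2 level in the array labelled KO Ly6C-hi (circles) and KO Ly6C-low (squares) of the 15 genes with the largest difference each way, over all genes used (upper panels) and over genes that reached 6 in both arrays (lower panels); dashed lines mark the background guide of 6.09 and 5.49. All 15 genes of the upper right panel lay under the guide in Ly6C-hi, while those of the lower right panel, led by Ehd3 at 6.29 and 11.16, reached 6 in both arrays; Plxnd1 (6.06 in the hi array) and Fabp1 (6.06) among them lay just under the guide.

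The Ly6C-low array carried the transcript set of liver sinusoidal endothelium, from its scavenger receptors to its transcription factors. Stab2 read 4.63 in the hi array and 10.61 in the low array, and the lectin gene Clec4g read 5.66 and 11.46. The lymphatic and sinusoidal hyaluronan receptor gene Lyve1 read 5.91 and 8.89. The mannose receptor gene Mrc1 read 5.97 and 9.56, and Fcgr2b, the Fc receptor through which sinusoids clear immune complexes, read 8.73 and 10.58. Of 10 scavenger and lectin receptor genes used 9 were at least 2-fold higher in the low array and none in the hi array, with a median of -3.29 (-2.91 when centred). Mrc1, Fcgr2b and Cd36 are macrophage genes as well, so their share from either cell cannot be told apart here.

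Receptors for vascular growth factors showed the same direction. The vascular endothelial growth factor receptor genes Kdr (5.22 in the hi array and 10.52 in the low array), Flt4 (3.75 and 8.58) and Flt1 (4.44 and 8.56) all lay far apart. The angiopoietin receptor gene Tek read 3.31 and 8.84, and Ptprb, the phosphatase that restrains it, read 4.79 and 10.72. The co-receptor gene Nrp1 (6.57 and 9.47) and the bone morphogenetic protein receptor gene Bmpr2 (7.92 and 10.05) were above the guide on both sides. Of 15 used 13 were at least 2-fold higher in the low array, against 20.7% of all genes used, with a median of -3.42. The median level of the list in the hi array, 4.94, lay under the guide of 6.09. With dim values raised to the guide the list median was -2.49.

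Genes that join endothelial cells to each other had the lowest median of the lists. All 22 junction and identity genes used read higher in the low array, 20 of them at least 2-fold, with a median of -3.68. The adherens junction cadherin Cdh5 read 4.24 in the hi array and 9.86 in the low array, the tight junction gene Cldn5 read 3.82 and 9.19, and the orphan receptor gene Gpr182, a marker of sinusoids, read 4.27 and 8.99. Ehd3, a membrane trafficking gene, was measured on both sides (6.29 and 11.16), a 29.3-fold difference. F11r, which leukocytes express too, differed less (6.74 and 8.69). With dim values raised to the guide, the median of this list was -2.26.

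Most transcription factors of endothelium were higher in the low array. Of 15 used 12 were at least 2-fold higher in the low array, with a median of -2.24 (-0.69 over the members that reached 6 in both arrays). The hypoxia factor gene Epas1 read 4.85 in the hi array and 9.22 in the low array, the homeobox gene Meis2 read 4.18 and 8.32, and the endothelial ETS factor gene Erg read 4.51 and 7.85. The sinusoidal regulator gene Maf read 4.87 and 7.65, with 2 probe sets at -3.03 and -2.78. Fli1, an ETS factor active in both endothelium and leukocytes, read 7.71 and 8.09, and with Ets2 (7.38 and 8.07) and the sinusoidal factor gene Gata4 (5.37 and 6.20), the latter named after its values were seen, it made up the members within 2-fold.

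Matrix and signalling genes of the sinusoid stood on the same side. Of 9 basement membrane and matrix genes used 8 were at least 2-fold higher in the low array, with a median of -3.24. The exception was Fn1, the only member to reach 6 in both arrays, so the other 8 passed the floor only through the low array. Nid1, which links laminin to collagen, read 3.48 and 9.53, though its 2 probe sets differed by -6.05 and -3.18. The matricellular gene Sparc read 4.87 and 9.02. Of 10 signals by which sinusoids instruct hepatocytes 9 were past 2-fold toward low (median -2.81), among them Bmp2, an inducer of hepcidin (2.69 and 7.60), the liver growth factor gene Hgf (4.54 and 7.37) and the Notch ligand gene Dll4 (3.89 and 6.73). Il6st, the shared receptor chain of the interleukin-6 family, was bright on both sides (7.37 and 11.21). Of 16 guidance receptor genes used 14 were that much higher in the low array. Plxnc1 read 5.69 and 9.97, and Robo4 read 4.94 and 8.6. The share of all genes used past 2-fold toward low was 20.7%. The median levels of the signal and guidance lists in the hi array, 5.08 and 4.85, lay under the guide of 6.09. With dim values raised to the guide the list medians were -1.28 and -1.16, and Dll4 differed by -0.64.

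Coagulation genes divided between the gates. F8, which sinusoidal endothelium makes, read 3.24 in the hi array and 9.74 in the low array, the largest difference of all genes ranked (-6.49, or -3.65 with the dim value raised to the guide). The tissue factor inhibitor gene Tfpi (4.12 and 8.05), the protein S gene Pros1 (5.07 and 7.58) and the thrombomodulin gene Thbd (5.4 and 6.94) read higher in the low array. Toward Ly6C-hi stood F13a1, F10, the factor X gene (7.57 and 6.04), and the urokinase receptor gene Plaur (9.04 and 7.55). The median of the 10 used was 0.12, with 3 at least 2-fold higher in the hi array and 4 in the low array. For all genes used these shares were 4.47% and 20.7%. Tfpi, Pros1 and Thbd lay under the guide in the hi array. With dim values raised to it they differed by -1.96, -1.49 and -0.85.

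Lists of resident and reparative macrophage functions also leaned to Ly6C-low, though several members are shared with endothelium. Of 10 Kupffer cell identity genes used 7 were at least 2-fold higher in the low array (median -1.75), but the 2 largest were Cdh5 and the podoplanin receptor gene Clec1b (4.99 and 9.58), both also endothelial. The iron exporter gene Slc40a1 read 4.28 and 7.25, and Folr2 read 5.58 and 7.54. Of 15 repair macrophage genes 8 were that much higher in the low array and 1, Chil3, in the hi array, with a median of -1.21 (-0.84 when centred). Retnla, a secreted product of alternatively activated macrophages, read 5.68 and 8.35, the growth factor gene Igf1 read 5.54 and 7.07, and the arginase gene Arg1 read 8.32 and 9.52. Slc40a1, Folr2, Retnla and Igf1 lay under the guide in the hi array. With dim values raised to it their differences were -1.16, -1.45, -2.26 and -0.98. The list medians were then -1.26 for Kupffer cell genes and -0.98 for repair macrophage genes. Of all genes used, 20.7% passed 2-fold toward low. Endothelial markers, summed at 7.92 and 13.14 above, moved with these lists, and their part in the result was not tested.

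Among genes for the uptake of dying cells, 11 of 17 used passed 2-fold toward low and none toward hi (median -1.40). The share of all genes used toward low was 20.7%. With dim values raised to the guide the list median was -0.95. Mertk, the receptor of macrophages for dying cells, read 6.41 in the hi array and 9.2 in the low array. Its bridging ligands Gas6 (4.93 and 7.04) and Pros1 stood on the same side. Both ligands lay under the guide in the hi array, and with dim values raised to it differed by -0.95 and -1.49. The complement gene C1qb, which tissue macrophages make, read 7.93 and 9.43. Stab2, Stab1 (5.94 and 8.85) and Cd36 are on this list and are endothelial too. The GTPase gene Rac1, needed for engulfment in any cell, read 9.27 and 9.40.

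Among lipid and iron genes, the lipid list held more members past 2-fold. Of 18 fatty acid and cholesterol genes used 8 were at least 2-fold higher in the low array and none in the hi array (median -0.83). The capillary anchor of lipoprotein lipase, Gpihbp1, read 5.20 and 9.72, and Plpp3 and Plpp1, phosphatases of lipid messengers, read 4.42 and 10.26, and 4.46 and 9.78. Fabp5, a fatty acid carrier of macrophages, read 9.10 and 10.79, but its 4 probe sets spanned -1.69 to 0.12. The lipid droplet gene Plin2 was near equal (9.35 and 8.98). Of 8 iron and heme genes 2 were past 2-fold toward low, Slc40a1 and the heme scavenger Hpx (7.67 and 9.37), and the ferritin gene Fth1 (11.12 and 11.05) and the heme oxygenase gene Hmox1 (7.35 and 6.85) were not; that share is near the 20.7% of all genes used.

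Hepatocyte transcripts were read in both arrays, at higher levels in the low array. Albumin (Alb) read 9.83 and 10.94, the urinary protein gene Mup3 read 8.46 and 9.74, and the fatty acid carrier gene Fabp1 read 6.06 and 8.74. All 11 hepatocyte genes used read higher in the low array and 9 were past 2-fold, with a median of -1.13. After centring only 2 of the 11 stayed past 2-fold. Of 6 stellate and fibroblast genes 4 were past 2-fold toward low (median -1.90), with Dcn, a collagen-binding proteoglycan, at 4.42 and 6.74. Only Acta2 of this list reached 6 in both arrays (6.52 and 6.35). For Bgn and Rgs5 a second probe set differed by only -0.12 and -0.06. Of 5 platelet genes 3 were past 2-fold toward low, namely Pf4, Clec1b and the G protein subunit gene Gng11 (5.73 and 9.14). Clec1b and Gng11 are also endothelial. Ppbp stayed within 2-fold (6.18 and 6.64), and Gp9 read higher in the hi array (6.55 and 5.56). Of 3 B cell genes used 2 were past 2-fold toward low, Bank1 (5.51 and 7.02) and Cd79b (4.75 and 6.06). With lowess scaling the sign turned for Cd79b (0.35) and Rgs5 (0.27). No T cell, NK cell, cholangiocyte or erythroid gene of the lists reached 6 in either array.

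**Figure D3:**
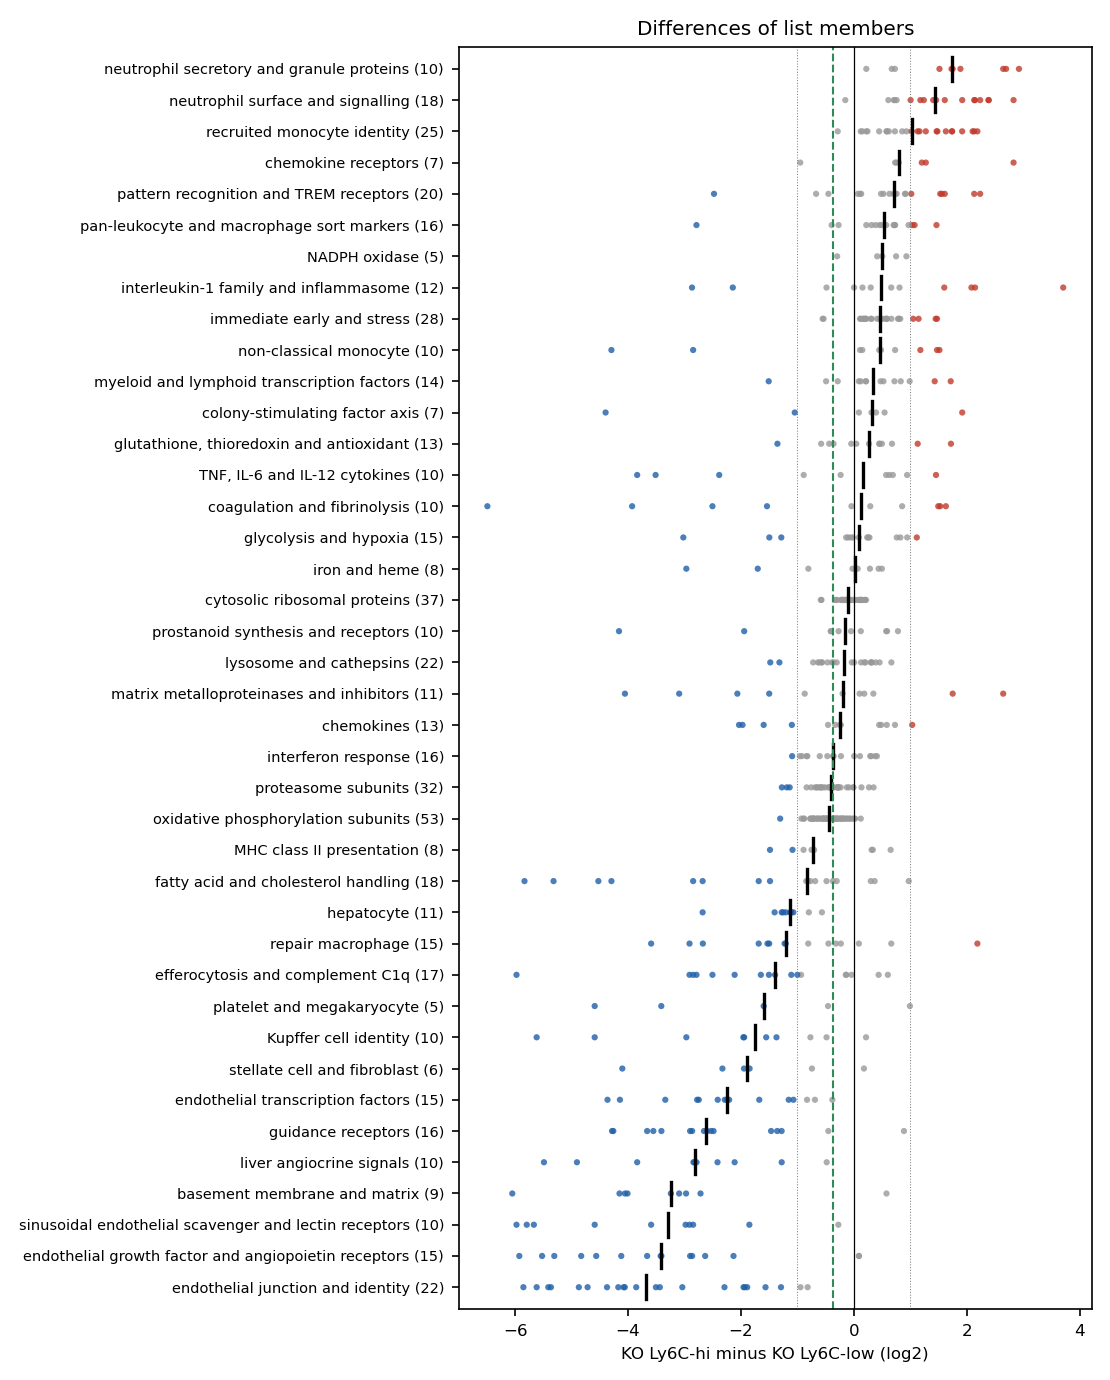
Difference between the arrays labelled KO Ly6C-hi and KO Ly6C-low (x axis, log2) of each used member of the gene lists (number used in brackets), with the list median as a black bar. Members past 2-fold toward Ly6C-hi are red and toward Ly6C-low blue, dotted lines mark 2-fold and the green dashed line the median of all genes used, -0.37; neutrophil and recruited monocyte lists lie to the right and the endothelial lists to the left.

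Programs shared by most cells differed little. The 37 cytosolic ribosomal protein genes used spanned -0.58 to 0.22 with a median of -0.09, which turned to 0.28 when centred and 0.05 after quantile normalisation. The 53 oxidative phosphorylation genes had a median of -0.45 (-0.07 when centred), with only Ndufa5 (6.70 and 8.01) past 2-fold. The 32 proteasome genes had a median of -0.41 (-0.04), with 3 past 2-fold toward low. Of 22 lysosomal genes 2 were past 2-fold toward low, the tetraspanin gene Cd63 (7.70 and 9.18) and the protease gene Ctsl (7.05 and 8.37), and the median of -0.17 turned to 0.20 when centred. These lists lay close to the median gene, unlike the myeloid and endothelial ones.

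Antigen presentation, interferon and stress genes lay between. Of 8 class II presentation genes used 2 were at least 2-fold higher in the low array, H2-Eb1 (8.71 and 9.80) and H2-DMb2 (6.07 and 7.55), and the median was -0.73 (-0.36 when centred). Of 16 interferon response genes 1 was, the tethering factor gene Bst2 (7.46 and 8.55), with a median of -0.36 that turned to 0.01 when centred. Immediate early and stress genes read higher in the hi array in 26 of 28 used but only 4 were past 2-fold (median 0.47), among them the stress genes Atf3 (9.08 and 8.03) and Gadd45b (9.42 and 8.27). Of 15 glycolysis and hypoxia genes 1 was past 2-fold toward hi, the lactate exporter gene Slc16a3 (6.07 and 4.96), and 3 toward low, with the vasodilator gene Adm, an endothelial product, at 3.48 and 6.50. Slc16a3 lay under the background guide in both arrays, so it may hold no signal. Adm lay under the guide in the hi array, and with dim values raised to it differed by -0.41. The shares of class II, interferon and glycolysis genes toward low were near or under the 20.7% of all genes used. Of 31 cell cycle genes 3 were used, and the brightest, Pcna, was near equal (8.77 and 8.79). The replication genes Mcm3 (4.62 and 6.41) and Mcm6 (4.77 and 6.38) read higher in the low array. Both lay under the background guide in the hi array, and with dim values raised to it their differences were -0.32 and -0.29.

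In the pathway of the deleted enzyme 2 of 10 genes used passed 2-fold toward low, a share near the 20.7% of all genes used. Slco2a1, the transporter that takes prostaglandins into cells, read 5.24 in the hi array and 9.40 in the low array, and Hpgd, the dehydrogenase that inactivates prostaglandin E2, read 6.21 and 8.16. Slco2a1 is also known from endothelium, and Hpgd is on the Kupffer cell list. The inducible cyclooxygenase gene Ptgs2 read 7.26 and 6.47, and Ptger4 read 6.14 and 5.55. None passed it toward hi, and the median was -0.16 (0.21 when centred), against -0.37 for all genes used. In the leukotriene branch, Alox5ap, the activator of 5-lipoxygenase, read 10.49 and 9.16, with probe sets at 0.51 and 1.34, and Lta4h, which makes leukotriene B4, read 5.00 and 6.20, a difference that became 0.031 with lowess scaling.

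Chemosensory receptor genes, which have no known place in these cells, and microRNA genes also differed between the arrays. Of 1374 olfactory and vomeronasal receptor genes 43 reached a level of 6, and 41 of these read higher in the hi array, 15 of them at least 2-fold, with a median of 0.92. Over all 1374 the median difference was 0.22. Of 50 microRNA genes used 45 read higher in the hi array and 11 were past 2-fold, with a median of 0.73. Together these classes made up 26 of the 203 genes past 2-fold toward hi and none of the 938 toward low. Olfr988, which led them, read 7.26 in the hi array and 5.56 in the low array. The part of such signal in the other genes higher in the hi array was not tested, and without both classes the count toward hi was 177.

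**Figure D4:**
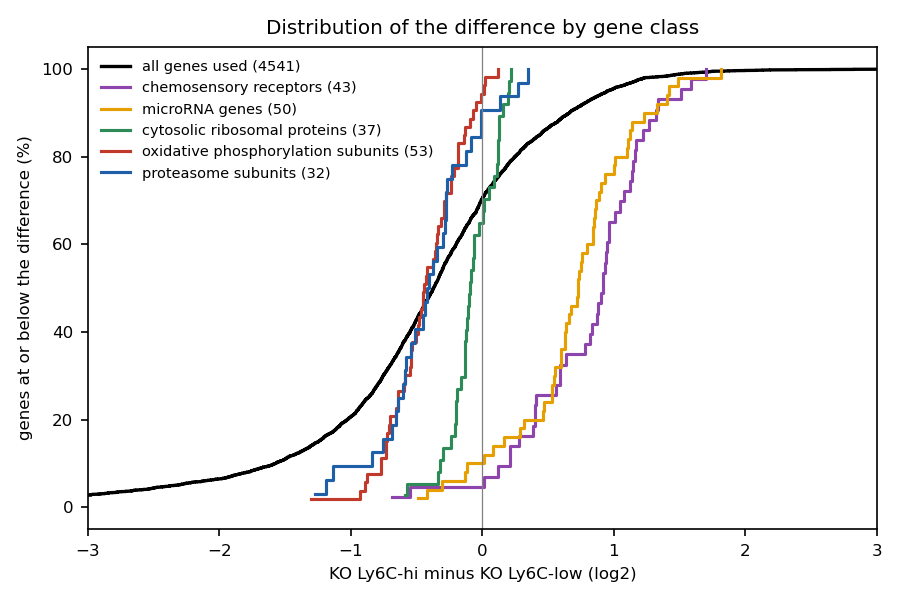
Cumulative share of genes (y axis, percent) at or below a given difference between the arrays labelled KO Ly6C-hi and KO Ly6C-low (x axis, log2, drawn from -3 to 3) for all genes used and for 5 gene classes. Ribosomal protein genes rise steeply near 0 (median -0.09), chemosensory receptor and microRNA genes lie to the right (medians 0.92 and 0.73), and the line of all genes used has a long tail to the left.

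In the WT livers too, the neutrophil and recruited monocyte lists stood toward the Ly6C-hi array and the endothelial lists toward the Ly6C-low array. In WT, 966 of 4762 genes used (20.3%) were 2-fold or more higher in the Ly6C-hi array and 313 (6.57%) in the Ly6C-low array, with a median gene of 0.30 against -0.37 under the KO label. Centred on that median, the WT counts were 645 (13.5%) and 494 (10.4%). The 114 genes past 2-fold toward hi in both genotypes were 56.2% of the KO genes and 11.8% of the WT genes on that side. The 229 shared toward low were 24.4% and 73.2%. Over the members used under the KO label, the junction list had a median of -3.68 in KO and -2.33 in WT, and the growth factor receptor list -3.42 and -1.65. The neutrophil secretory and granule list had 1.74 and 2.76, the interleukin-1 list 0.48 and 1.78 and the immediate early list 0.47 and 1.57, while recruited monocyte genes had 1.02 and 0.75. The median genes of the genotypes lie 0.67 apart, and with each genotype centred on its own the pairs were -3.31 and -2.63 for the junction list, -3.05 and -1.95 for the growth factor receptor list and 2.11 and 2.46 for the granule list. Centred values were 0.85 and 1.48 for the interleukin-1 list, 0.84 and 1.27 for the immediate early list and 1.39 and 0.45 for recruited monocyte genes. All these pairs rest on members that passed the level floor in the KO arrays, a choice that can favour the KO size. Over the members that reached 6 in either WT array, the deposited WT median was -2.97 for the junction list (16 used). It was -1.65 for the growth factor receptor list (15 used) and 2.54 for the interleukin-1 list (13 used). S100a9 read 10.19 and 7.36 in the WT arrays, and Il1b read 12.10 and 9.31. Stab2 read 5.24 and 8.64 in the WT arrays. With 1 array per group the difference between genotypes was not tested for any gene or list.

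**Figure D5:**
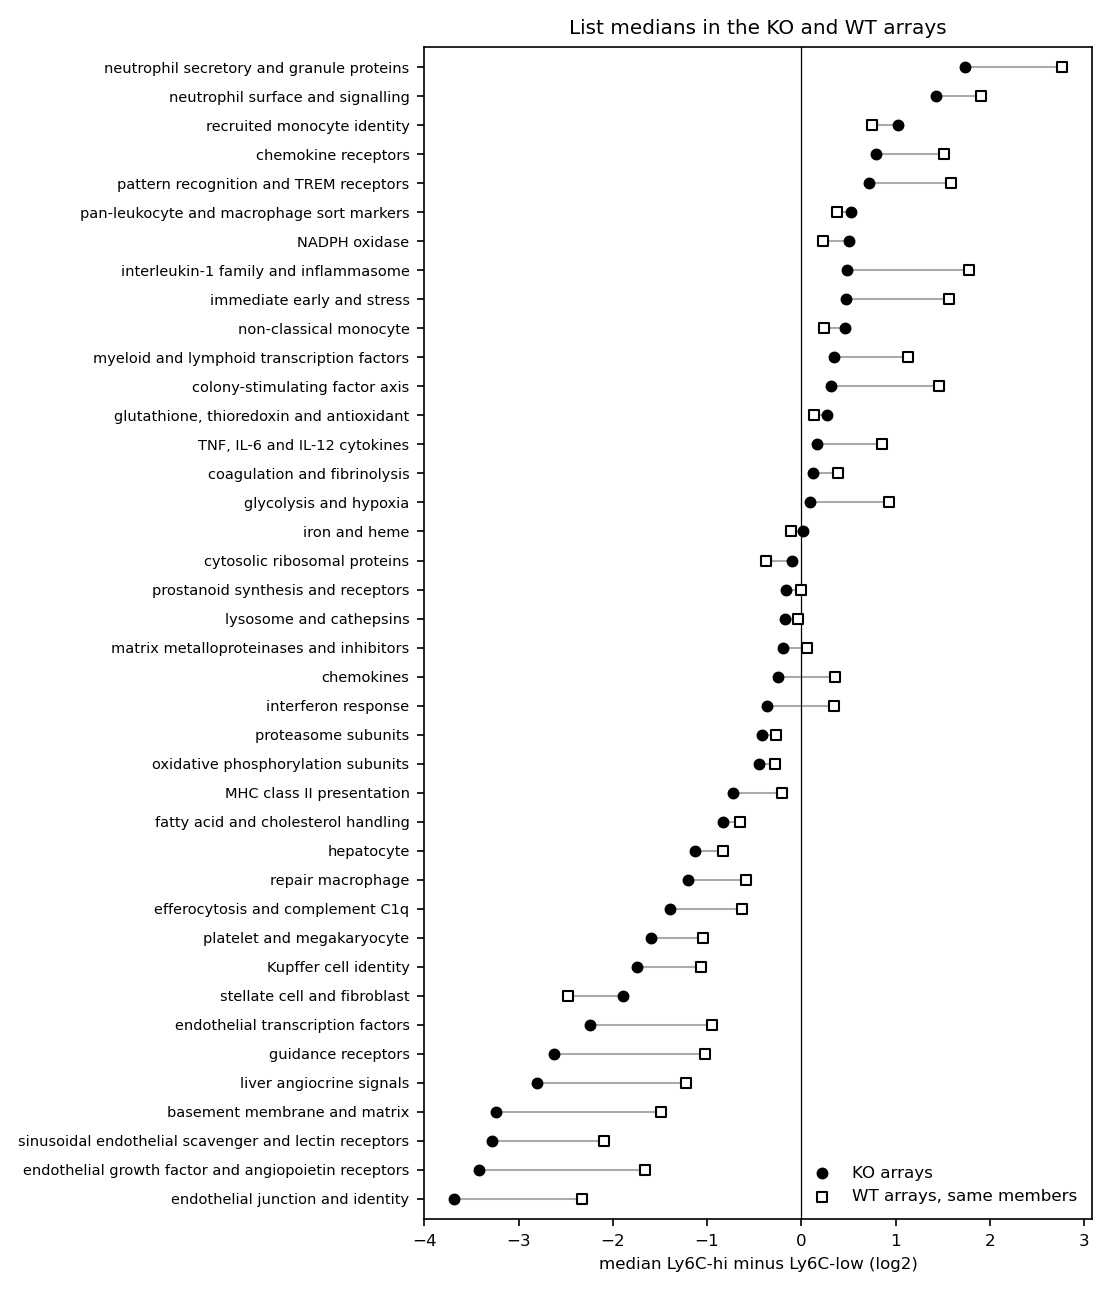
Median difference between Ly6C-hi and Ly6C-low (x axis, log2) of each list in the arrays labelled KO (filled circles) and, over the same members, in the WT arrays (open squares), with lists ordered by the KO median. Over these members, chosen by their level in the KO arrays, endothelial lists lie further to the left in KO than in WT (-3.68 and -2.33 for junction and identity genes). Over the junction and identity genes that reached 6 in either WT array, the WT median was -2.97. No test of these differences was possible with 1 array per group.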

How the data were processed

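Gene-level log2 values, the RMA output of Expression Console per the labels, are what the authors deposited; the submitters' processing notes name RMA too. This method is known to correct background, quantile normalise the arrays and summarise the probes of each probe set. Its version was not given in the sources used here. RNA came from a TRIzol extraction, and 5 ng went into the WT Pico kit per the labels, an input that needs strong amplification.

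The platform annotation gave 1 symbol to 23521 of 41345 probe sets, several to 1814 and none to 16010. Only the first kind was used. Current symbols came from the RefSeq table of GRCm38.p6 for 23328 of them, and 193 kept the annotation's symbol. For the 1082 genes with several probe sets, the one with the highest 4-array mean was taken. Genes at log2 6 or more in the brighter of the 2 KO arrays were used, and differences were counted at 2-fold. A gene dim on one side passes this floor only through the other, so list counts are read against the same counts over all genes used. The number of arrays limits the precision. The comparison and the 55 gene lists were chosen with earlier results of these data known, and 66 list entries found no probe set with 1 symbol. Named genes were Ptges, the Ly6 genes, the 15 largest differences each way, the same among genes at 6 in both arrays, and for each list the 6 largest differences and the 2 brightest members. Predicted, RIKEN, microRNA and similar symbols were left out of the largest differences. The counting was tested on simulated data. Scaling, level floor, probe set choice and the treatment of dim values were varied. The work used Python 3.11.15, numpy 2.4.6, pandas 2.3.3, statsmodels 0.14.6 and matplotlib 3.10.9.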

Additional observations from a re-analysis of the deposited data

Results flagged for a closer look

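As deposited, 32 genes used in both genotypes were at least 2-fold apart between the gates in opposite directions, 17 of them higher in the hi array under the KO label and 15 higher in the low array. With each genotype centred on its median gene these counts were 48 and 3. Only cases among the named genes are given here. With 1 array per group the difference between genotypes was not tested for any of them. Il1a differed by -2.87 under the KO label (5.92 in the hi array, 8.79 in the low array) and by 1.17 in WT (9.70 and 8.53). Csf1, the growth factor of macrophages, differed by -1.05 under the KO label (5.86 and 6.91) and by 3.54 in WT (9.51 and 5.97). The transcription factor gene Cebpd differed by -1.51 (5.70 and 7.21) against 1.47 in WT (7.05 and 5.58). The integrin gene Itgax, which encodes CD11c, differed by -1.25 (5.85 and 7.10) against 1.32 in WT (8.09 and 6.77). Centred, the pairs were -2.50 and 0.88 for Il1a, -0.68 and 3.24 for Csf1, -1.14 and 1.17 for Cebpd and -0.87 and 1.02 for Itgax, so Cebpd stayed past 2-fold both ways and the other 3 did not. In these 4 genes the array labelled KO Ly6C-hi lay under the background guide of 6.09, and the Ly6C-low values of the genotypes were within 2-fold of each other except for Cebpd.

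The other cases among the named genes were chemosensory receptors, of which Olfr1034 and Vmn1r149 did not reach 6 in either WT array. Olfr485 differed by 1.59 under the KO label and -1.34 in WT, Olfr1034 by 1.51 and -1.08, and Olfr508 by 1.33 and -1.23. Vmn1r149 differed by 1.32 and -1.57, and Olfr1170 by 1.27 and -2.57. Of the 33 such genes used in WT only 1 read higher in Ly6C-hi (median -1.11), where 41 of 43 did under the KO label.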

How the results depend on the processing

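No paired analysis was possible because each group has 1 array and the labels carry no replicate numbers. The count toward hi, 203 as deposited, was 486 when centred, 335 with quantile normalisation, 436 with lowess, 130 with a floor of 7, 99 with 6 in both arrays and 499 with no floor. The count toward low, 938, was 582 when centred, 470 with lowess, 496 with a floor of 7, 215 with 6 in both arrays and 466 with dim values raised to the background guide. A higher floor tests fewer genes; the cause of the other shifts was not tested. There were 9 listed alternatives and 1 added after seeing the data (without chemosensory receptor and microRNA genes). Of 19 list medians past 2-fold, 17 kept their sign under all of them and 6 stayed past 2-fold. Of 182 named genes past 2-fold, 176 kept their sign and 134 stayed past 2-fold wherever they had a value, but only 76 had one with 6 in both arrays and 154 with a floor of 7. The 75 with a value under every alternative kept their sign, and 56 of them stayed past 2-fold. Signs turned with lowess for Il1r1 (0.41), Lta4h (0.031), P4ha1 (0.44), Lrat (0.32), Rgs5 (0.27) and Cd79b (0.35), and with dim values raised for Il1r1 (0.01), P4ha1 (0.071) and Cd79b (0.027). With 6 in both arrays the basement membrane value was 0.58 and the stellate value 0.18. Each was that of a single gene, Fn1 and Acta2, the only members left. Arrays without replicates give no error for any value.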

Other observations

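Cytokine and growth factor receptor genes stood on both sides; those given were picked from the named genes after their values were seen. The interleukin-6 receptor gene Il6ra read 8.4 in the hi array and 6.95 in the low array, and the interleukin-17 receptor gene Il17ra read 8.07 and 6.36. The oncostatin M gene Osm read 6.19 and 5.24, while its receptor gene Osmr read 3.68 and 7.19 and the shared chain Il6st read higher in the low array as given above. The stem cell factor receptor gene Kit read 4.32 and 8.72. Of 10 genes of the tumour necrosis factor, interleukin-6 and interleukin-12 families used, 1 passed 2-fold toward hi and 3 toward low, with a median of 0.17.

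Among antioxidant genes few differed by 2-fold. The cystine transporter gene Slc7a11 read 6.45 in the hi array and 4.73 in the low array, though its 2 probe sets differed by 1.72 and -0.17, and the glutathione reductase gene Gsr read 7.59 and 6.46. The catalase gene Cat read 7.54 and 8.89. Of 13 used, 2 were past 2-fold toward hi and 1, Cat, toward low, under the 20.7% of all genes used, and Cat differed by -0.98 when centred (median 0.27). Among proteases, the membrane collagenase gene Mmp14 read 5.77 and 7.84 and the macrophage elastase gene Mmp12 read 5.57 and 7.07, and Mmp8 and Mmp9 stood on the other side.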
